A study of Mus musculus with 6 samples.

Results

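The genes described here are 36 mouse genes that build and control autophagy and the lysosome, out of 22367 protein-coding genes of GENCODE vM1 on the mm9 assembly (chromosomes 1 to 19, X and Y). They were listed by name, from the Ulk1 kinase complex to the lysosomal membrane proteins, and the rule uses no binding value, although the list was drawn up with earlier results of these data known. The annotation held 34 of them under their current symbol, and Tfeb and Tfe3 were found under the older names Tcfeb and Tcfe3. For each gene, p53 peaks were taken as its own when they overlapped the gene body extended by 5 kb on both sides, which is called the gene window below. The lists come from p53 ChIP-seq, in which DNA bound by p53 is pulled down from cross-linked chromatin with an antibody (NCL-p53-CM5p) and sequenced. Spleens of Trp53+/+ C57/Bl6 mice at 8 weeks of age were separated with B220 beads into B cells and the unbound remainder, called non-B cells, which is a mixture of the other spleen cell types. Each fraction was analysed in mock-treated mice and 4 h after 7 Gy of ionizing radiation (IR), and whole spleen of irradiated Trp53-/- C57/Bl6 mice (7 Gy, 4 h, age not given in its label) served as antibody control. Chromatin was pooled over animals and each group is 1 library, so differences between lists have no replicate check and no test is given. The Trp53-/- spleen was not sorted and differs from the wild-type groups in cell makeup as well as in genotype.

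Autophagy encloses cytoplasm in a double membrane, the autophagosome, which then fuses with the lysosome, where hydrolases such as cathepsins digest its content. The Ulk1 kinase complex starts the process, a lipid kinase complex around Becn1 marks the membrane, Atg9 vesicles and Atg2 proteins supply lipid, and a ubiquitin-like conjugation system attaches the Atg8 proteins (the LC3 and GABARAP families) to it. Tfeb, Tfe3 and Foxo3 are transcription factors known to switch on many of these genes, and p53 is known to control several of them after DNA damage, with DRAM1 as a classical target in human cells.

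After IR, most of these genes carried p53 peaks in both cell fractions, while few did in mock-treated cells. In the B cells IR list, 28 of the 36 genes (77.8%, 95% Wilson interval 61.9 to 88.3%) had a peak in their window, against 48.6% of all protein-coding genes. In the non-B cells IR list this was 27 of 36 (75.0%, 58.9 to 86.2%), against 47.0% of all protein-coding genes. The listed genes are longer than most, with a median of 27347 bp against 15427 bp, and a long window catches more peaks. When protein-coding genes were weighted to the same spread over 10 length bins, their share with a peak was 57.4% in B cells and 55.5% in the non-B cells. The share among the autophagy genes was thus 20.4 percentage points above that of genes of similar length in B cells (interval 4.54 to 30.9) and 19.5 points above it in the non-B cells (3.47 to 30.8). These intervals cover the counting of 36 genes only, since genes are not replicates of a library. In the B cells mock list 3 of 36 genes (8.33%, 2.87 to 21.8%) had a peak, where the background was 3.69% of all protein-coding genes and 4.59% at similar length. No gene of the list had a peak in non-B cells mock (background 1.82%, upper bound for the 36 genes 9.64%) or in the Trp53-/- spleen (background 0.103%).

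**Figure D1:**
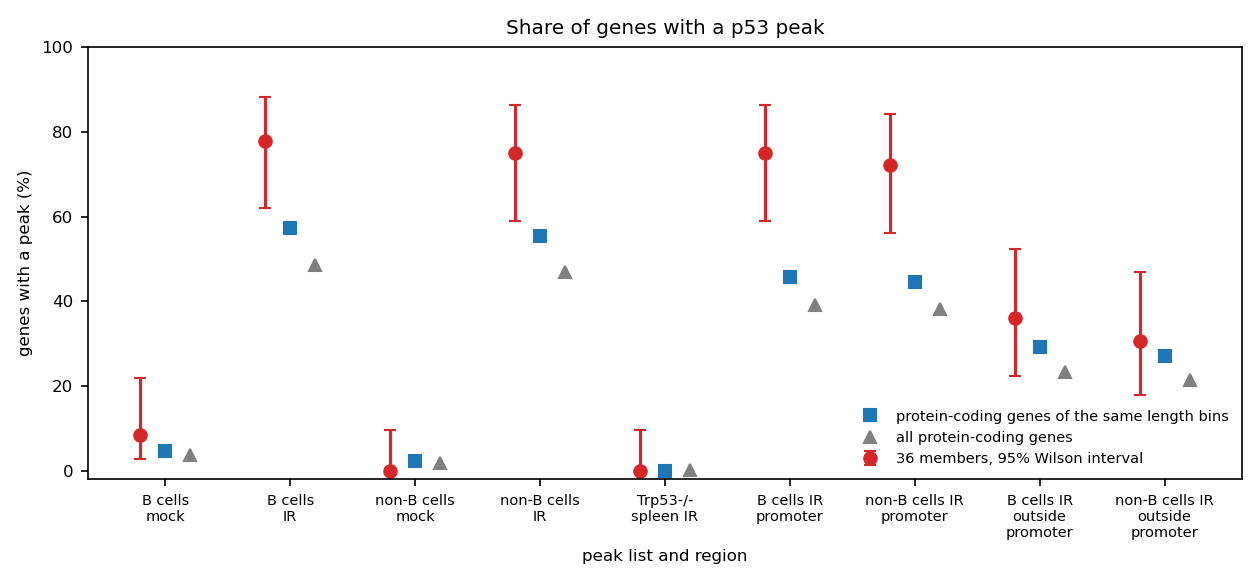
Percent of genes with a p53 peak (y axis) in each of the 5 lists, and for the IR lists in the promoter window and outside it (x axis). Red points are the 36 autophagy and lysosome genes with 95% Wilson intervals, blue squares protein-coding genes of the same length bins and grey triangles all protein-coding genes; after IR the red points lie at 77.8% and 75.0% for the whole window, above the squares at 57.4% and 55.5%.

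The lists themselves differ greatly in length, and this bears on each count. The IR lists held 24507 (B cells) and 21400 peaks (non-B cells), the mock lists 1413 and 712, and the Trp53-/- list 83. Read totals were not used here, so depth is unknown, and a gene without a peak may have been bound and not called. Peaks of at least 174 bp were called in the wild-type IR lists, whereas the smallest were 53 to 55 bp in the mock and Trp53-/- lists. Whether the calling ran under the same conditions in both sets is not known from the lists. The part that list length and calling have in the difference between mock and IR was not tested. When each IR list was shortened to its strongest peaks, as many as the mock list of the same fraction holds, 4 of the 36 genes had a peak in B cells and 3 in the non-B cells. They were Ulk1, Atg7 and Foxo3, with Laptm4a in B cells, and none of them had a mock peak. The mock lists themselves gave 3 of the 36 genes in B cells and 0 in the non-B cells. At equal list length the counts after IR and in mock were thus close in B cells. No share of all protein-coding genes was computed for the shortened lists. The 83 peaks of the Trp53-/- spleen overlapped none of the wild-type peaks in the autophagy gene windows.

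Each peak carries 1 deposited value, taken as the -log10 of its p-value, which depends on the depth of its library and is not normalised between lists. It is therefore given together with the percentile of the peak in its own list, where 100 is the strongest. In the B cells IR list 74 peaks lay in the 36 windows, at a median percentile of 50.5, against 49.0 for all peaks in protein-coding windows. In the non-B cells IR list 62 peaks lay there, at a median percentile of 64.0, against 49.4. The mean number of peaks per gene was 2.06 in B cells and 1.72 in the non-B cells, against 1.26 and 1.12 for genes of similar length. A highest peak in the top 20% of its list was found at 10 of the 36 genes in B cells (27.8%, 15.8 to 44.0%). The background was 13.4%, or 16.7% at similar length, which lies within this interval. In the non-B cells 14 genes had such a peak (38.9%, 24.8 to 55.1%), against a background of 13.5%, or 16.5% at similar length.

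**Figure D2:**
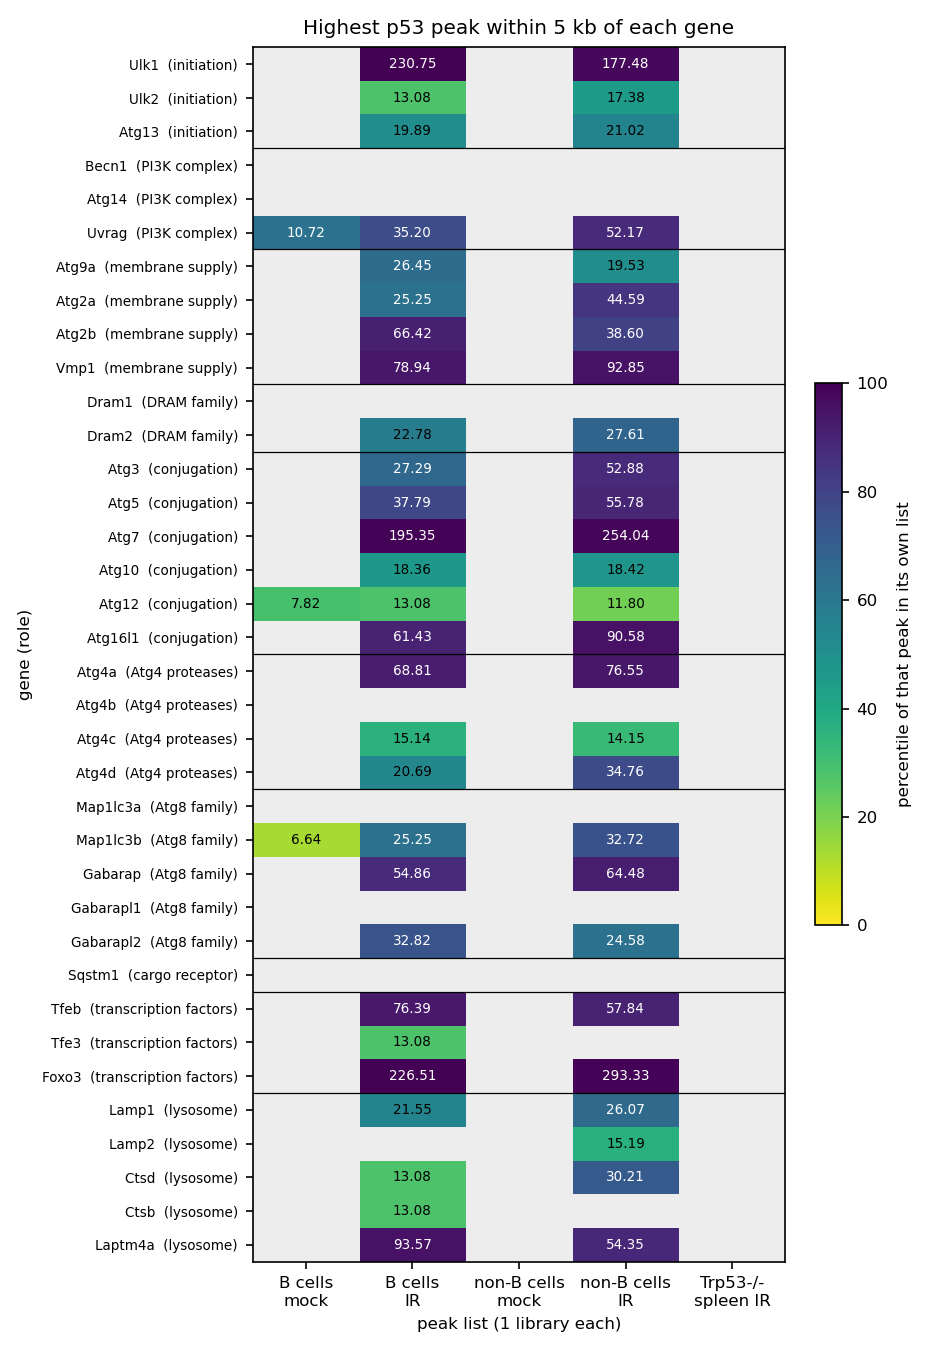
Highest p53 peak in the window of each of the 36 genes (rows, grouped by role) in each of the 5 lists (columns, 1 library each). The printed number is the deposited -log10 p, the colour is the percentile of that peak in its own list and grey means no peak; 28 and 27 genes are filled in the IR columns, 3 in B cells mock and none in non-B cells mock or the Trp53-/- spleen.

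The strongest p53 sites of the group lay at Ulk1, Atg7 and Foxo3, all in the top 5% of both IR lists and absent from the mock lists. In total 4 genes reached the top 5% in each IR list (11.1%, 4.41 to 25.3%), with Laptm4a as the fourth in B cells and Vmp1 in the non-B cells. The background was 3.44% in B cells and 2.98% in the non-B cells, or 4.47% and 3.83% at similar length. The interval contains the value of similar genes in B cells. Most of these strong peaks hold a p53 response element. The full element consists of 2 adjoining decamers, each with 3 purines, a C, a pair of A or T bases, a G and 3 pyrimidines. It was searched within 300 bp of each peak midpoint on mm9, allowing 3 mismatches over the 20 bases and no spacer, with the C and the G of each decamer required. The elements of the strongest peaks, and those of Atg4a, Atg2b, Vmp1, Uvrag and Tfeb that recur in both IR lists, are shown to let the sequences under these peaks be compared with the element that p53 is known to bind. They are written 5′ to 3′ on the plus strand, with the C, the pair and the G of each decamer in capitals.
Atg7, first intronic peak: agaCTTGcctgggCTTGtct
Atg7, second intronic peak: aggCTAGcccaggCATGtat
Ulk1: ggaCATGttgaggCATGtac
Foxo3: gggCATGcacaggCATGcac
Atg4a: agaCATGccccaaCATGtat
Atg2b: aggCATGctgtggCATGttc
Uvrag: tagCTTGcctaggCATGtta
Vmp1: aatCATGtcagggCATGtgt
Tfeb: atgCATGatcagaCATGatc
The first Atg7 element (chr6:114617719-114617738) had 0 mismatches and the second (chr6:114717515-114717534) had 1. The elements of Ulk1 (chr5:111243279-111243298), Foxo3 (chr10:41981141-41981160), Atg4a (chrX:137517214-137517233), Atg2b (chr12:106918320-106918339) and Uvrag (chr7:106181006-106181025) had 2 each. Those of Vmp1 (chr11:86431940-86431959) and Tfeb (chr17:47918311-47918330) had 3. All but the Ulk1 element, which lies upstream of its gene, are intronic.

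Among the initiation genes, Ulk1, the kinase that starts autophagosome formation, had the strongest site of all 36 genes in B cells. Its upstream peak (chr5:111242637-111243854, 1218 bp) had a value of 231 in B cells IR, at percentile 99.3. The overlapping peak in non-B cells IR (chr5:111242610-111243711, 1102 bp) had a value of 177, at percentile 97.9. The midpoints lay 4129 and 4044 bp upstream of the Ulk1 start site, and no other start site was nearer. A second peak just upstream of the start site was weak, with values of 23.0 in B cells (percentile 58.6) and 6.97 in the non-B cells (percentile 2.08). Another, beyond the 3′ end of Ulk1, lay nearest to the start of Pus1 and had values of 16.2 and 32.2. Its paralogue Ulk2 had start-site peaks only, at most 13.1 in B cells (percentile 27.9) and 17.4 in the non-B cells (percentile 45.4). Atg13, the regulatory subunit of the Ulk1 complex, had 1 start-site peak in each IR list, with values of 19.9 (chr2:91550615-91551114, 500 bp, percentile 51.1) and 21.0 (chr2:91550659-91551117, 459 bp, percentile 54.8). An element with 3 mismatches lay within 300 bp of the Atg13 peak midpoint in B cells, but outside the called peak. None lay within that distance in the non-B cells, where the midpoint was nearer to the start of the divergent gene Harbi1.

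Of the lipid kinase complex, Uvrag alone had peaks. Becn1, the scaffold of the complex, and Atg14, which directs it to autophagosome formation, had none in any list. Uvrag is a 254402 bp gene, and its 10 peaks in B cells IR and the 9 of non-B cells IR were spread over the whole gene. The start-site peak had a value of 28.4 in B cells (chr7:106289547-106290229, 683 bp, percentile 67.8) and of 52.2 in the non-B cells (chr7:106289546-106290138, 593 bp, percentile 88.1). In B cells the highest Uvrag peak was instead intronic (chr7:106180818-106181281, 464 bp), with a value of 35.2 at percentile 76.3. The overlapping non-B peak (chr7:106180878-106181242, 365 bp) had a value of 26.5 at percentile 66.1, and both hold the element printed above and another with 2 mismatches. A further pair of intronic Uvrag sites held an element with 3 mismatches in both lists, with values of 14.1 to 27.4 in B cells and 8.36 to 16.9 in the non-B cells.

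All 4 membrane supply genes had peaks in both IR lists. Vmp1, a lipid scramblase of the endoplasmic reticulum needed for autophagosome formation, had 9 peaks in B cells and 8 in the non-B cells. Its highest peak was intronic, with a value of 78.9 in B cells (chr11:86437741-86438324, 584 bp, percentile 93.4) and 92.9 in the non-B cells (chr11:86437807-86438310, 504 bp, percentile 95.1). The neighbouring intronic peak with the printed element had values of 54.9 (chr11:86431688-86432210, 523 bp, percentile 88.1) and 92.6 (chr11:86431598-86432382, 785 bp, percentile 95.1). An intronic peak with another element of 3 mismatches was found in B cells only, at a value of 7.29 (chr11:86399714-86400121, 408 bp, percentile 2.36). The 3′ part of Vmp1 also holds Mir21, the gene of the microRNA miR-21 (chr11:86397569-86397660), and the nearest peaks lay 2054 bp from it in B cells and 2445 bp in the non-B cells, with values of 7.29 and 17.3. At the start of the whole Vmp1 gene a peak was called in B cells IR alone, with a value of 8.41, and its nearest start was that of the divergent gene Ptrh2. Atg2b, a lipid transfer protein, had an intronic peak with an element, of 66.4 in B cells (chr12:106918087-106918496, 410 bp, percentile 91.3) and 38.6 in the non-B cells (chr12:106918084-106918478, 395 bp, percentile 80.5). Its start-site peak had values of 30.1 and 31.5. A further Atg2b peak, past the 3′ end of the gene and nearest to the start of Bdkrb1, was found in B cells IR only (chr12:106850086-106850302, 217 bp, value 12.2, percentile 24.5) and holds an element with 1 mismatch. Atg2a had a single start-site peak, at 25.3 in B cells (chr19:6241310-6241747, 438 bp, percentile 62.6) and 44.6 in the non-B cells (chr19:6241296-6241723, 428 bp, percentile 84.5). Atg9a, the scramblase of the vesicles that seed the membrane, had a single start-site peak of 26.5 and 19.5.

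In the conjugation system all 6 genes had peaks in both IR lists. Atg7, the E1-like enzyme that activates both Atg8 proteins and Atg12, had its strongest peak deep in an intron (chr6:114716984-114718085, 1102 bp), 124383 bp from its start site, with a value of 195 in B cells at percentile 98.9. The non-B peak (chr6:114717017-114717978, 962 bp) had a value of 254 at percentile 98.8. The start site nearest to this peak belongs to Vgll4, not to Atg7. The other intronic peak, with the element free of mismatches, had values of 106 in B cells (chr6:114617434-114618047, 614 bp, percentile 96.2) and 117 in the non-B cells (chr6:114617340-114617990, 651 bp, percentile 96.4). The Atg7 start-site peak ranked far apart in the lists, with a value of 8.41 in B cells (percentile 6.64) and 39.9 in the non-B cells (percentile 81.4). Thus the intronic Atg7 sites stood at nearly the same rank in both fractions and the start site did not.

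The other conjugation genes had their highest peak at a start site, or, for Atg10 in B cells, in an intron 6975 bp from it. Atg16l1, which places the conjugation machinery on the membrane, had a value of 61.4 in B cells (chr1:89652217-89652826, 610 bp, percentile 90.2) and 90.6 in the non-B cells (chr1:89652234-89652816, 583 bp, percentile 94.9). Atg5, the partner of Atg12, had values of 37.8 (chr10:43987955-43988434, 480 bp, percentile 78.6) and 55.8 (chr10:43987950-43988378, 429 bp, percentile 89.4). The E2-like enzyme Atg3 had values of 27.3 (chr16:45158696-45159124, 429 bp, percentile 66.1) and 52.9 (chr16:45158685-45159192, 508 bp, percentile 88.3). In these 3 genes the start-site peak ranked higher in the non-B cells. Atg10, the E2-like enzyme for Atg12, had an intronic peak of 18.36 in B cells and 14.15 in the non-B cells. Its start-site peak had values of 17.27 and 18.42. Atg12 had 13.1 in B cells (245 bp, percentile 27.9) and 11.8 in the non-B cells (361 bp, percentile 21.4).

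The 4 Atg4 proteases, which trim Atg8 proteins and release them from membranes, differed among themselves. Atg4a had an intronic peak with an element, at 68.8 in B cells (chrX:137517018-137517585, 568 bp, percentile 91.8) and 76.6 in the non-B cells (chrX:137516999-137517508, 510 bp, percentile 93.5). Atg4c and Atg4d had start-site peaks only, at percentiles of 35.7 and 53.5 in B cells and 32.2 and 77.1 in the non-B cells. Atg4b had no peak in any list.

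Among the 5 Atg8 family genes, Gabarap, Gabarapl2 and Map1lc3b had peaks in both IR lists, while Map1lc3a and Gabarapl1 had none. Gabarap had a start-site peak of 54.9 in B cells (chr11:69804398-69805122, 725 bp, percentile 88.1) and 64.5 in the non-B cells (chr11:69804345-69805111, 767 bp, percentile 91.5). A second Gabarap peak, past the 3′ end and nearest to the start of Phf23, had values of 39.6 and 41.9. Gabarapl2 had its highest peak in an intron, with values of 32.8 and 24.6. Map1lc3b, which encodes LC3B, had its highest peak 4898 bp upstream of the start site in B cells (value 25.3) and 4891 bp upstream in the non-B cells (value 32.7). A weaker start-site peak of Map1lc3b had values of 13.5 and 17.6. Sqstm1, which encodes the cargo receptor p62, had no peak in any list.

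All 3 transcription factor genes had a peak in B cells IR, and Tfeb and Foxo3 had peaks in the non-B cells too. Foxo3 had 6 peaks in each IR list, and its highest was intronic, 15441 bp from the start site in B cells. That peak had a value of 227 in B cells (chr10:41980388-41981827, 1440 bp, percentile 99.3) and 293 in the non-B cells (chr10:41980680-41981756, 1077 bp, percentile 99.1), the highest non-B value of all 36 genes. The second Foxo3 peak, also intronic and nearer to the start site, had values of 192 (chr10:41993642-41994941, 1300 bp, percentile 98.8) and 224 (chr10:41993843-41995390, 1548 bp, percentile 98.6), and no unsplit element was found in the scanned stretch. Foxo3 peaks upstream of its start site were weaker, at most 31.4 in B cells and 32.7 in the non-B cells. Tfeb, the main regulator of lysosomal genes, had 7 peaks in B cells and 3 in the non-B cells, all within the promoter window of one or other of its several annotated start sites. Its highest peak had a value of 76.4 in B cells (chr17:47905478-47906243, 766 bp, percentile 93.1) and 57.8 in the non-B cells (chr17:47905571-47906051, 481 bp, percentile 90.0). The Tfeb peak with the printed element had values of 30.1 (chr17:47918085-47918520, 436 bp, percentile 70.3) and 12.0 (chr17:47918153-47918419, 267 bp, percentile 22.3). Tfe3 had 1 peak in B cells IR, at its start site (chrX:7339637-7339903, 267 bp, value 13.1, percentile 27.9), and in the non-B cells the nearest peak lay 14339 bp away.

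The lysosomal genes had mostly weak start-site peaks, with Laptm4a as the exception. Laptm4a, which encodes a small lysosomal membrane protein, had a peak 4781 bp upstream of its start site in B cells (chr12:8922947-8923751, 805 bp) with a value of 93.6 at percentile 95.2. In non-B cells that peak (chr12:8922995-8923800, 806 bp) had a value of 54.4 at percentile 88.9. Both lists also held a Laptm4a start-site peak of similar value, 48.7 in B cells and 53.4 in the non-B cells. No unsplit element was found within 300 bp of the midpoints of these Laptm4a peaks, which are wider than the scanned stretch. Lamp1, an abundant glycoprotein of the lysosomal membrane, had a single start-site peak of 21.6 and 26.1. Ctsd, the aspartic protease cathepsin D, had a start-site peak of 13.1 and 17.3 and in the non-B cells an additional intronic peak of 30.2. Ctsb, the cysteine protease cathepsin B, had peaks in B cells IR only, at 13.1 (chr14:63747962-63748165, 204 bp, percentile 27.9) and 9.34 (chr14:63741743-63741989, 247 bp, percentile 11.0), and the nearest non-B peak was 24671 bp away. Lamp2, the receptor of chaperone-mediated autophagy, had a peak in non-B cells IR only (chrX:35809579-35809801, 223 bp, value 15.2, percentile 36.7), and the nearest B cell peak lay 143807 bp away. The value of 13.1 recurs at Ulk2, Atg12, Tfe3, Ctsd, Ctsb and Tfeb in B cells because deposited values take repeated levels, the most frequent of which, 10.2, was borne by 522 peaks of that list.

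**Figure D3:**
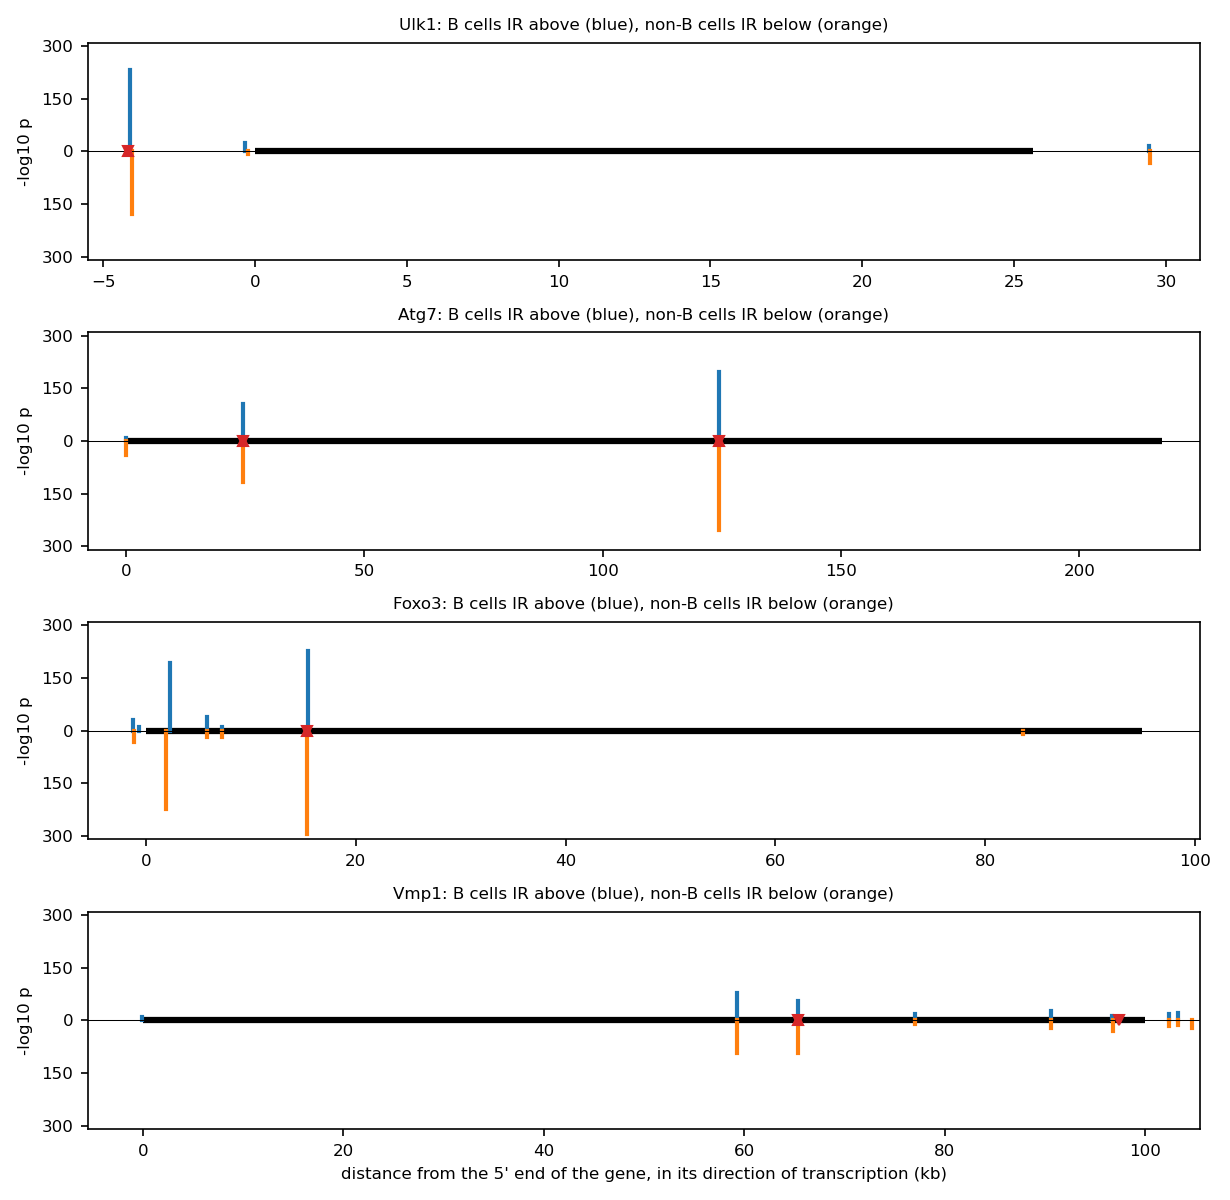
Peaks over 4 gene windows (Ulk1, Atg7, Foxo3 and Vmp1), by distance from the 5′ end of the gene in kb (x axis), with the deposited -log10 p of B cells IR drawn upward in blue and of non-B cells IR downward in orange. The black bar is the gene and red triangles are unsplit elements; the tallest lines lie upstream of Ulk1 (231 and 177) and inside Atg7 (195 and 254) and Foxo3 (227 and 293).

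The DRAM genes encode lysosomal membrane proteins, and Dram1 is the classical p53-induced member in human cells. Dram1 had no peak in its window in any list. The nearest peaks after IR lay 11090 bp upstream of the gene in B cells, with a value of 42.3 at percentile 82.0, and 11121 bp upstream in the non-B cells, with a value of 19.4 at percentile 50.2. Both lie inside Gnptab, which starts 52 bp from Dram1 on the opposite strand. Dram2 had a start-site peak of 22.8 in B cells (percentile 57.5) and 27.6 in the non-B cells (percentile 67.8), and its start lies 25 bp from that of the divergent gene Cept1. A peak at such a shared start cannot be given to either gene, and 9 of the 36 genes have a protein-coding start of the opposite strand within 1 kb.

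In all, 7 of the 36 genes (19.4%) had no peak in either IR list, against 48.8% of all protein-coding genes and 39.5% of those of similar length. They were Becn1, Atg14, Dram1, Atg4b, Map1lc3a, Gabarapl1 and Sqstm1. The nearest peaks to Becn1 were 6857 bp away in B cells (value 22.6) and 6832 bp away in the non-B cells (value 13.6), at the starts of other genes. Near Atg4b the closest peaks lay at the start of Dtymk, 11963 and 11980 bp downstream, with values of 44.0 and 60.9. Near Sqstm1 they were 24474 and 24504 bp away, with values of 42.5 and 21.4. For Map1lc3a the distances were 17505 bp in B cells (value 12.9) and 39634 bp in the non-B cells (value 18.4). For Gabarapl1 they were 40761 and 49197 bp, with values of 6.22 and 10.5. Atg14 had the emptiest surroundings, with the nearest peaks 50496 bp away in B cells (value 23.5) and 58456 bp away in the non-B cells (value 17.2).

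Peaks in mock-treated cells were few, and those of Map1lc3b and Atg12 ranked low in their list. All 3 lay in a promoter window, so 8.33% of the 36 genes (2.87 to 21.8%) had a promoter peak in B cells mock. The background was 1.95% of all protein-coding genes, or 2.33% at similar length. In B cells mock the Uvrag start site had a peak of 10.7 (chr7:106289915-106289982, 68 bp, percentile 62.7), which overlapped the start-site peak of 28.4 in B cells IR. Map1lc3b had a peak of 6.64 (chr8:124109574-124109633, 60 bp, percentile 13.2) 4765 bp upstream of its start site, which overlapped the upstream IR peak of 25.3. Atg12 had a peak of 7.82 (55 bp, percentile 29.0) nearer to the start of the divergent gene Ap3s1, and it overlapped no peak of B cells IR, but did overlap the Atg12 start-site peak of non-B cells IR. The strong IR sites of Ulk1, Atg7 and Foxo3 had no mock peak.

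Most genes with a peak had it at the promoter. A midpoint in the promoter window, which reaches 5 kb up and 2 kb down from any annotated start site, was found at 27 of the 36 genes in B cells IR (75.0%, background 39.2%, or 45.8% at similar length) and at 26 in non-B cells IR (72.2%, background 38.1%, or 44.5%). A peak outside the promoter window was found at 13 genes in B cells (36.1%, 22.5 to 52.4%, background 23.4%, or 29.3% at similar length) and at 11 in the non-B cells (30.6%, 18.004 to 46.9%, background 21.4%, or 27.0%). The excess over genes of similar length was therefore larger at promoters than outside them, where the intervals contain the value of similar genes. In each fraction 25 genes had a peak midpoint within 500 bp of their own start site, though not the same 25. Gabarapl2 and Tfe3 had one in B cells only, and Atg4a and Lamp2 in the non-B cells only. No share of all protein-coding genes was computed for this distance. The midpoints of 36 B cell and 31 non-B cell peaks were intronic, 13 and 9 lay in UTR exons, and none lay in a coding exon.

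Elements were found mainly away from start sites. In B cells IR 14 of 74 peaks (18.9%, 11.6 to 29.3%) had an unsplit element within 300 bp of the midpoint, against 11.9% of all peaks in protein-coding windows. For non-B cells IR the count was 11 of 62 (17.7%, 10.2 to 29.0%), against 11.6%. The scanned stretch can reach beyond a narrow peak, and the Atg13 element in B cells lay outside the called peak. Among peaks over 500 bp from any protein-coding start the shares were 12 of 40 in B cells (30.0%, 18.1 to 45.4%, background 17.1%) and 11 of 34 in the non-B cells (32.4%, 19.1 to 49.2%, background 17.5%). Within 500 bp of a start they were 2 of 34 (5.88%, 1.63 to 19.1%, background 4.01%) and 0 of 28 (upper bound 12.1%, background 3.96%). With a spacer of up to 15 bases allowed, 47.3% and 48.4% of the peaks held an element, close to the 43.4% and 42.2% of all peaks in protein-coding windows. Start-site peaks of genes such as Atg16l1, Gabarap, Atg5 and Atg3 reached up to the top 20% of a list without an unsplit element.

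**Figure D4:**
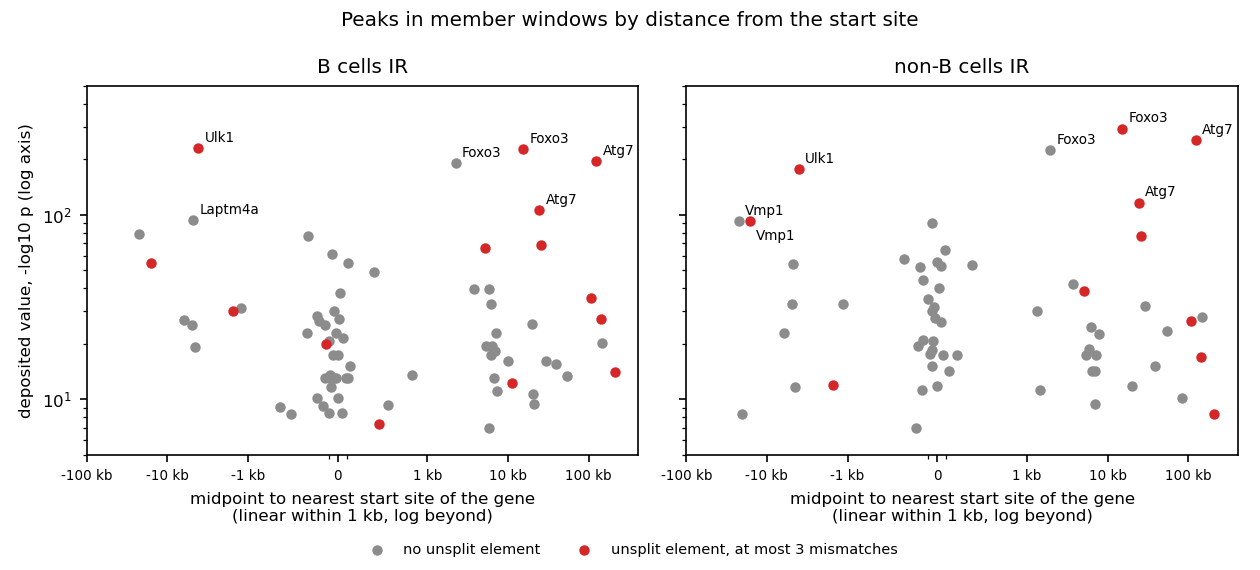
Each point is a peak in the window of an autophagy gene, by distance of its midpoint from the nearest start site of that gene (x axis, linear within 1 kb and logarithmic beyond) and deposited -log10 p (y axis, logarithmic), for B cells IR (left) and non-B cells IR (right). Red points have an unsplit element within 300 bp of the midpoint and are mostly far from start sites. Of these, 12 of 14 in B cells and all 11 in the non-B cells lie over 500 bp from a protein-coding start. Genes with a peak in the top 5% of the list are named.

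The 2 IR lists largely shared their sites. A peak in at least 1 IR list was found at 29 genes (80.6%, background 51.2%). Peaks in both were found at 26 of the 36 genes (72.2%, background 44.3%, or 52.4% at similar length), in B cells only at Tfe3 and Ctsb (background 4.26%) and in the non-B cells only at Lamp2 (background 2.62%). All 26 shared genes had overlapping peaks, in 55 pairs, and the deposited values of the pairs had a Spearman rho of 0.710 as a description across pairs. Among the 26 pairs within 500 bp of a protein-coding start, 21 (80.8%) ranked higher in the non-B cells, with a median percentile difference (B minus non-B) of -10.4. In all protein-coding windows 53.5% of 6374 such pairs ranked higher in the non-B cells, with a median difference of -0.986. Among the 29 pairs farther from a start, 9 (31.0%) ranked higher in the non-B cells with a median difference of 5.30, near the 32.1% and 5.58 of 7485 pairs in all protein-coding windows. Start-site peaks such as those of Atg7, Atg3, Atg2a, Uvrag and an internal start of Vmp1 lay on the non-B side, while that of Ulk1 ranked higher in B cells. Each fraction is 1 library, and no difference in rank was tested.

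**Figure D5:**
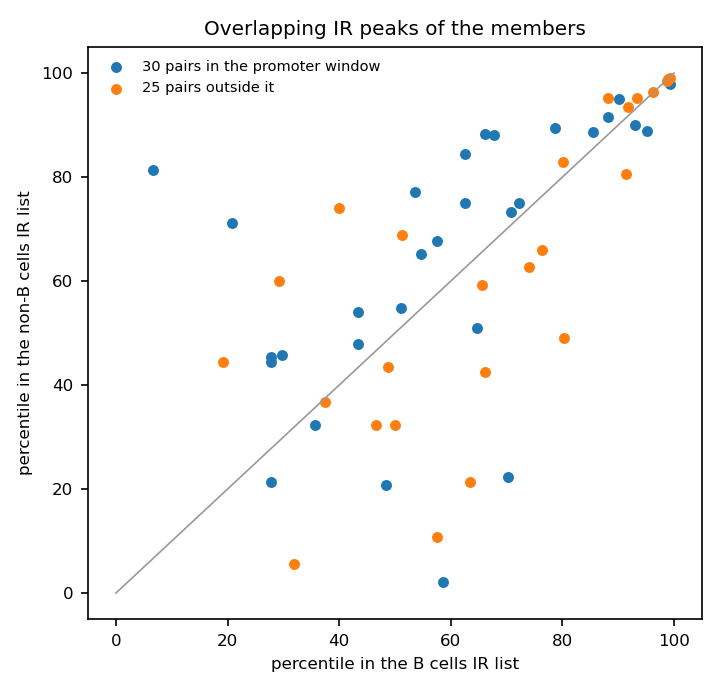
Percentile of each of the 55 overlapping peak pairs in the B cells IR list (x axis) and the non-B cells IR list (y axis), with the line of equal rank. Blue points are the 30 pairs in the promoter window, of which 21 lie above the line, and orange points the 25 pairs outside it, of which 9 do.

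Of 55 other autophagy and lysosome genes, 46 (83.6%) had a window peak in B cells IR and 42 (76.4%) had one in the non-B list, where genes of similar length gave 56.9% and 55.1%. Laptm5, a lysosomal membrane protein of blood cells related to Laptm4a, had the highest values, 255 (B) and 556 (non-B) after IR, and was called in both mock lists as well, at 66.2 and 75.3. Scarb2, the receptor that carries glucocerebrosidase to the lysosome, had values of 201 and 303. Pik3r4, the regulatory subunit of the lipid kinase complex that also holds Becn1, had values of 122 and 78.6. Ctsz, a cathepsin, had values of 83.8 and 35.1, and Tmem41b, a scramblase that acts with Vmp1, had values of 62.9 and 74.7.

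The letters CACGTG, the E-box that Tfeb, Tfe3 and related factors are known to bind, were searched on both strands in the RefSeq promoter sequences (GRCm38.p6, 250 bases before to 50 after the start), which were given for 31 of the 36 genes. They were found in 6 of 31 (19.4%, 9.19 to 36.3%), against 8.91% of 17492 genes and 11 of 44 (25.0%) of the other pathway genes with a sequence. The genes were Atg14, Atg3, Atg5, Atg7, Lamp1 and Ctsd. The longer palindrome TCACGTGA, which contains the first motif, occurred in 2 of 31 (6.45%), Atg3 and Ctsd, against 1.41% of all genes. The copies inside TCACGTGA are shown with the E-box in capitals, since these are the 8-base form known from lysosomal gene promoters.
Atg3: gtcgagtCACGTGaggcctt
Ctsd: cgcgtctCACGTGacccgtt
Of these 6 genes, Atg3, Atg5, Atg7, Lamp1 and Ctsd had a p53 peak at their start site in both IR lists and Atg14 had none. Such peaks were common in the whole group, since 25 of the 36 genes had a midpoint within 500 bp of their start in each fraction. How common they are among all protein-coding genes was not computed. Whether the E-box and a start-site peak occur together more often than apart was not tested. A match of letters is a description of the sequence and says nothing about binding of these factors.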

How the data were processed

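The authors aligned reads, masked for low base quality, with BWA 0.6.2 to mm9 and called peaks with MACS, 1 list per library. The deposited column has no header and was taken from its values as -log10 of the peak p-value; for the Trp53-/- list this unit was assumed. The lowest deposited values were 5.01 to 5.85, which on that reading are less strict than the calling limit stated in the methods. The series has 6 libraries, and the input library was not used here as a list. Groups were taken from the labels.

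Coordinates are from 1 on mm9. Peaks were given to a gene by an overlap of at least 1 bp with its body extended by 5 kb, and to a promoter or feature by their midpoint. Length standardisation averaged, over the 36 genes, the share in the length bin of each (10 equal bins). Intervals are 95% Wilson intervals and cover counting error only. The genes given with full values were those with a mock peak, a peak in the top 20% of an IR list, an unsplit element, no IR peak or a peak in 1 IR list. Of the 55 other genes, the 5 with the highest value were named. The 36 genes, the other lists and the rules were chosen with earlier results of these data known. Older symbols were matched with a RefSeq table of GRCm38.p6, used for names and promoter sequences only. Scripts in Python 3.11.15 with NumPy 2.4.6 and SciPy 1.17.1 were tested on simulated data. Alternatives covered the extension, length bins, value minimum, promoter window, element and list length.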

Additional observations from a re-analysis of the deposited data

How the results depend on the processing

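Of 78 alternative settings, 69 changed a count by at most 1.5 times or a share by less than its interval. These include the settings for non-B cells mock and the Trp53-/- spleen, where the count was 0. There a narrower window or fewer peaks could not have changed it, so those settings say nothing about stability. A reversed direction was possible only in the 14 settings of the excess over background genes, and none was seen there. The excess over the background stayed above 0, interval included, in 14 of 14 settings. These include the excess over all protein-coding genes without length adjustment, 29.2 points in B cells and 28.0 points in the non-B cells. The 3 genes with a peak in B cells mock became 2 with an extension of 1 kb or with peaks given to the nearest start site only, 0 without the extension of the gene body, 1 with a minimum value of 8 and 0 with a minimum of 20. With the IR lists shortened to the length of the mock lists, 4 genes (B cells) and 3 genes (non-B cells) had a peak, which follows from the fewer peaks kept. The mock lists gave 3 and 0 genes, and no background share was computed for the shortened lists. The count of genes with a promoter peak in B cells IR fell from 27 to 16 with a minimum value of 20. The share of B cells IR peaks with an element was 10.8% with at most 2 mismatches, and with a spacer allowed the shares were 47.3% (B cells) and 48.4% (non-B cells). No paired analysis was possible because a single library stands for every group and no result comes from a test between replicates. The unknown depth limits every absence of a peak.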
